A study of Mus musculus with 234 samples.

Results

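The cells described here were single cardiomyocytes (CMs) from the hearts of homozygous PGKcre:BAG3P209L mice that had been labelled bright or dim for the fluorescence of the transgenic fusion protein. They were chosen by their label and by a minimum of 1000 genes with a count. Of 234 cells in the series, 148 carried either label, 80 bright and 68 dim, and 142 of these passed the minimum, 76 bright and 66 dim. The 6 cells left out, 4 bright and 2 dim, had at most 938 genes with a count, and the lowest of the cells kept had 1117. Mouse_25 (M25) gave 20 bright and 18 dim cells, and Mouse_116 (M116) gave 56 bright and 48 dim cells. Both classes came from the same hearts, so the comparison asks how CMs with much and with little transgene differ within 1 animal, and n is 2 mice.

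All of these cells, bright and dim, were from mice carrying the human BAG3 sequence with the P209L change fused to eGFP, driven by the ubiquitous CAG promoter after a PGK-Cre transgene had removed a stop cassette; the line goes back to 1 clone of embryonic stem cells on a mixed background. Homozygous mice carried the construct on both alleles with the stop cassette removed from 1 or both, and which of these held for M25 and M116 is not given in the sources used here. The brightness was judged under a fluorescence macroscope. The cells were taken at an age of 2 weeks, were isolated by Langendorff perfusion and were picked by hand, and cells with little cDNA were not sequenced. Control cells, titled wt and with the strain label C57BL/6, came from mice 26 and 73. The paper describes its controls as siblings of the homozygous mice that were wild-type or carried PGK-Cre or the floxed construct. Mouse 26 shared the plate of M25, and no control cell lay on a plate of M116. Control values are used below to give the background of each value, as plain CPM without the scaling applied to the levels of bright and dim cells. Heterozygous cells of mouse 72 entered no comparison.

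BAG3 is a co-chaperone that joins Hsp70 to the small heat shock proteins, in particular HspB8, and hands damaged proteins of the Z-disc, such as filamin C, to autophagy through p62 (Sqstm1). It is strongly expressed in heart and skeletal muscle, where it works at sites of high mechanical load. The P209L change lies in a motif that binds small heat shock proteins, and in humans it causes a myofibrillar myopathy with cardiomyopathy.

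The 4 sums of cells (bright and dim of each mouse) held between 18381089 and 40502883 counts, and single cells held a median of 699993 to 1053320 counts in the 4 sets. In M116 the bright cells lay in plate columns 1 to 4 and the dim cells in columns 5 to 8. On the plate of M25 bright cells were in columns 1 to 3 and 8 and dim cells in columns 4 to 7. Brightness and plate column therefore cannot be told apart in either mouse. M116 was spread over 2 plates, each with both classes. The cells were checked against 11 CM markers, among them Myh6, Tnnt2 and Myl2, which together took 5.22% to 12.7% of the counts in 140 cells. The other 2 cells, both bright cells of M25, had 0.0653% and 0.22% and so lacked the profile of a CM. The first, in well C8, had 5.27% of its counts in fibroblast markers, against at most 0.531% in any of the 140 cells, and the highest hBAG level of all bright cells of M25, 867 CPM (counts relative to the total of the cell or sum, on a common scale). The second, in well E1, had 1117 genes with a count and no hBAG count. Many results that rest on these wells are given with and without them, and others, as stated, only with them.

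Transgene reads followed the brightness label in both mice, but the gap between the classes differed widely between the animals. The count table holds 2 features for the transgene, hBAG and BAG-eGFP. Human BAG3 and eGFP transcripts had been added to the reference for mapping, but where 1 feature ends and the other begins is not given in the sources used here. The hBAG level, in CPM scaled by TMM (trimmed mean of M values, a correction for composition), was 303 in the bright and 11.2 in the dim cells of M25, and 223 in the bright and 98.2 in the dim cells of M116. The dim cells of M116 thus held far more transgene RNA than the dim cells of M25, while the bright cells of both mice lay close together. BAG-eGFP showed the same order, with 227 and 7.79 in M25 and 214 and 96.3 in M116. Over both mice hBAG was higher in bright cells by 2.63 ± 0.95 (log2, SE; adjusted p = 0.67, edgeR quasi-likelihood test) and BAG-eGFP by 2.56 ± 0.95, neither of which passed the threshold. Without the 2 wells low in CM markers, the hBAG difference was 2.35, and the plain level in bright cells of M25 was 274 in place of 298 CPM. Within the plates of M116 the log2 ratio was 1.20 and 1.21. In control cells the plain level was 0.358 CPM in mouse 26 and 0.488 CPM in mouse 73, from 7 and 2 counts.

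**Figure D1:**
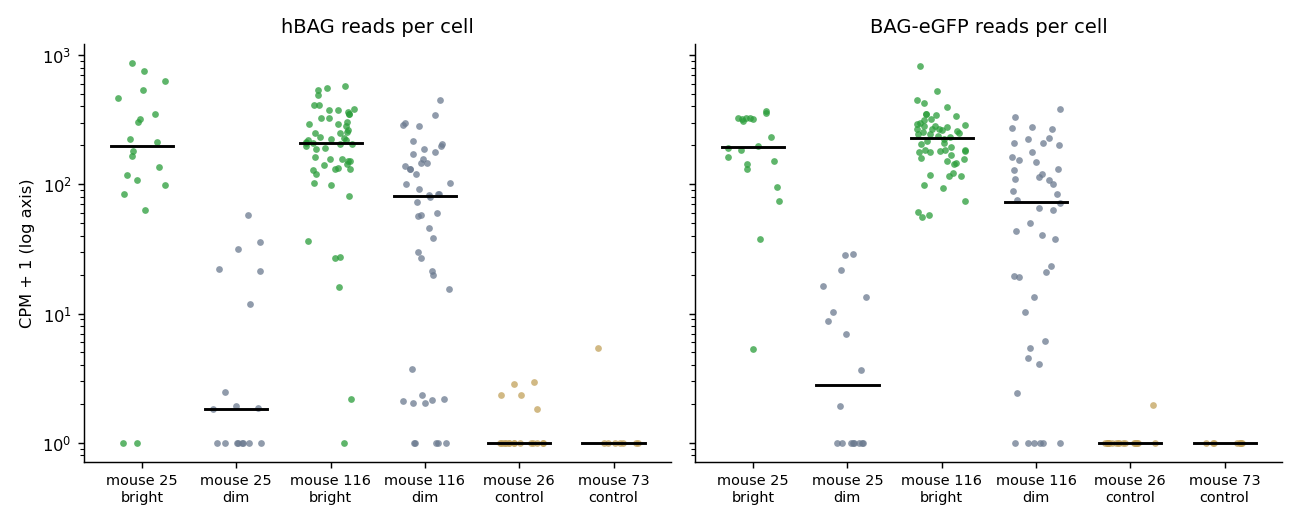
Transgene reads of single cells, as CPM plus 1 on a log axis, for hBAG (left) and BAG-eGFP (right); each point is 1 cell, black lines are medians, and the control cells are the background. In M25 the dim cells sit near the background, with a median of 0.84 CPM of hBAG, while in M116 they spread from 0 to 449 CPM and overlap the bright cells.

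Cell by cell, the classes were nearly separate in M25 and overlapped in M116. The hBAG level of bright cells ran from 0 to 867 CPM in M25, with a median of 196, and from 0 to 579 CPM in M116, with a median of 209. Dim cells ran from 0 to 57.1 CPM in M25, with a median of 0.84, and from 0 to 449 CPM in M116, with a median of 80.1. In M25, 18 of 20 bright cells were above every dim cell, whereas in M116 this held for 4 of 56. In M116, 6 of 48 dim cells exceeded the bright median and 6 of 56 bright cells fell below the dim median. Cells without a count of either feature were found among the dim cells, 5 of 18 in M25 and 3 of 48 in M116. Among bright cells there were 0 of 76, which allows a share of up to 3.95% of cells with no count (counting error only, over cells pooled from both mice, which are not independent replicates).

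Endogenous Bag3 did not follow the transgene. Its level was 201 CPM in bright and 233 in dim cells of M25, and 187 in bright and 153 in dim cells of M116, so that the direction differed between the mice, with a log2 difference of 0.04 ± 0.18. Control cells had 247 and 203 CPM. The ratio of hBAG to Bag3 counts was 1.5 in bright cells of M25 (exact 95% binomial interval 1.44 to 1.57) and 1.19 in bright cells of M116 (1.16 to 1.23). Well C8, low in CM markers, held 737 of the 5554 hBAG counts behind the first value, which is given only with it. The same holds for the mean of bright cells and the fold of M25 below. In dim cells the ratio was 0.0481 in M25 (0.0415 to 0.0555) and 0.64 in M116 (0.613 to 0.668); the intervals cover counting error only, and reads are not independent molecules. The ratio was 1.35 ± 0.221 in bright and 0.344 ± 0.418 in dim cells (SD, n = 2 mice), and it was 31.2 times as high in bright cells in M25 and 1.86 times in M116. With 2 pairs the exact permutation test, two-sided, cannot give less than p = 0.5, which is the value it gave.

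Across the transcriptome no gene passed the test between bright and dim cells. Of 13438 genes tested with the mouse as a block, edgeR called 0 (0.0%) at an adjusted p under 0.05; the smallest adjusted p was 0.665. At an unadjusted p under 0.05, 1002 genes were found, 481 (3.58%) higher and 521 (3.88%) lower in bright cells. DESeq2 on the same sums called 76 of 12656 genes, 35 (0.277%) higher and 41 (0.324%) lower. Most of these calls came from few cells: in 31 of the 35 and 30 of the 41, 1 cell held at least 50% of the gene's counts in the higher class of at least 1 mouse. The 41 lower genes included 7 immune and 3 erythroid markers. When cells with over 0.01% of counts in markers of other cell types were left out, as described further on, DESeq2 called 11 genes, 4 of them among the 76. The data are therefore described by levels, by the direction in each mouse and by the cells that carry a difference. Of all genes tested, 3405 (25.3%) were higher and 3422 (25.5%) lower in bright cells of both mice, against which the gene groups below can be read. The median difference over all genes was -0.0028 (log2).

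**Figure D2:**
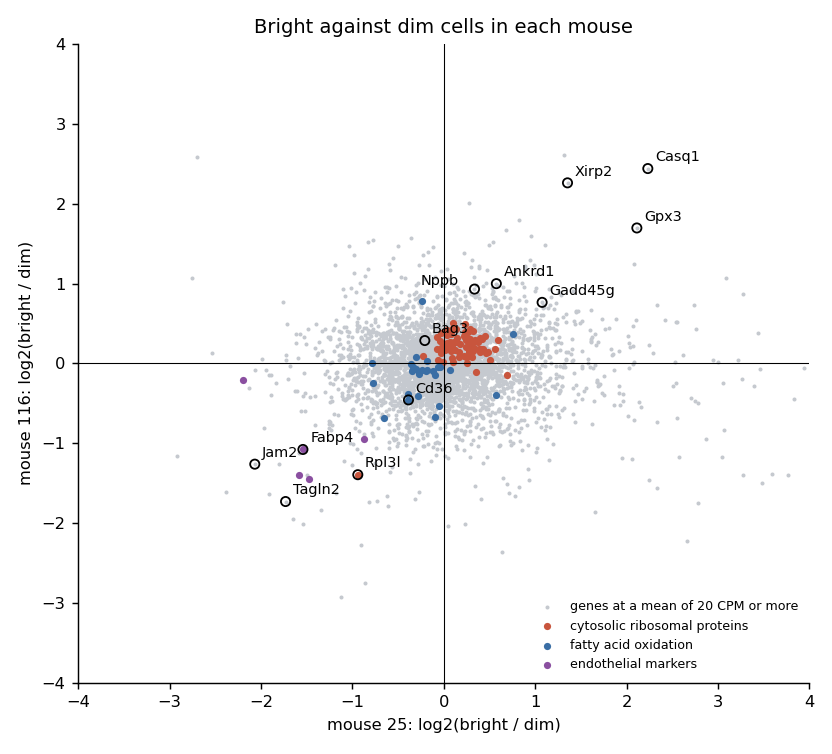
Log2 ratio of bright to dim cells in M25 (x axis) against M116 (y axis) for 4412 genes with a mean of at least 20 CPM over the 4 sums; 24 genes lie past the axes. Ribosomal protein genes sit in the upper right, endothelial markers in the lower left, and Xirp2, Casq1 and Gpx3 lie far out in the upper right corner.

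Many genes of the response to stretch and stress were higher in the bright cells of both mice. Of 28 tested genes of the fetal and stress program, 15 (53.6%) were higher in bright cells of both mice and 2 lower, with a median of 0.30 (log2). The median was 0.21 in M25 and 0.37 in M116, with 0.24 and 0.71 on the plates of M116. Members of this list at an unadjusted p under 0.05 numbered 7 higher and 1 lower, and DESeq2 called 3. No member passed the edgeR threshold.

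Ankrd1 encodes a stretch-responsive repeat protein that binds titin at the I-band. Its level was 1349 CPM in bright and 906 in dim cells of M25, and 1328 in bright and 665 in dim cells of M116. The difference was 0.79 ± 0.13 (log2, SE; adjusted p = 0.67 with edgeR and 4.1e-07 with DESeq2). Both classes lay above the control cells, which had 183 and 195 CPM. On the plates of M116 the log2 ratio was -0.06 and 1.85, so the difference in that mouse came from 1 plate. Nppb, which encodes B-type natriuretic peptide, had 1095 and 867 CPM in bright and dim cells of M25 and 636 and 333 in M116, a difference of 0.63 ± 0.17. Its ratio was above 0 on both plates of M116, 0.46 and 1.38, and control cells had 382 and 123 CPM. Nppa, for the atrial peptide, went with neither class: it was 413 in bright and 458 in dim cells of M25 but 211 and 6.81 in M116, with 56.7% of the last value from 1 cell.

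Xirp2 had a wider gap than either. It encodes an actin-binding Xin repeat protein of the Z-disc and intercalated disc. Its level was 712 CPM in bright and 279 in dim cells of M25, and 787 in bright and 164 in dim cells of M116, a difference of 1.81 ± 0.26. In M25 this came from 1 cell, which held 70.3% of the Xirp2 counts of the bright cells. Without the highest cell of each sum the log2 ratio was -0.20 in M25 and 1.62 in M116. In M116 12 of 56 bright cells exceeded every dim cell, and the median over cells was 282 CPM in bright against 150 in dim cells. In M25 the medians ran the other way, 167 against 242.

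The promoters of these 3 genes are shown because the genes were higher together. They are the 250 bases before the RefSeq start of each gene (GRCm38.p6), written 5′ to 3′ on the gene's strand, with capitals marking matches on either strand. The motifs searched were that of TEAD factors, spelled CATTCC, that of GATA factors, spelled AGATAA, and the TATA box, spelled TATAAA.
Ankrd1, chr19:36119845-36120094, minus strand: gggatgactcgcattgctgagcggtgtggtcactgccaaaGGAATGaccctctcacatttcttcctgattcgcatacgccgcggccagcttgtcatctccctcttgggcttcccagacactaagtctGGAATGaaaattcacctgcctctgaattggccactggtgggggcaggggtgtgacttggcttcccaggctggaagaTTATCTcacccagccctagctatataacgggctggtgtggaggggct
Xirp2, chr2:67445752-67446001, plus strand: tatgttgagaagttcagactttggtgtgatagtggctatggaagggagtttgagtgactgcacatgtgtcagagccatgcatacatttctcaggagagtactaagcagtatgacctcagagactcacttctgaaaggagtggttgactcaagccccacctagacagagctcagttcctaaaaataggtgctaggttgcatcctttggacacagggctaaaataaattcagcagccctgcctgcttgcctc
Nppb, chr4:147985650-147985899, plus strand: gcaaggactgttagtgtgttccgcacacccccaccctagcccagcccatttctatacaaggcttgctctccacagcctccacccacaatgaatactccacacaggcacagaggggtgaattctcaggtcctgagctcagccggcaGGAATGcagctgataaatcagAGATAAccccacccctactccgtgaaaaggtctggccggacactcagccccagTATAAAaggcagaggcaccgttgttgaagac
CATTCC began 210 and 123 bases before the start in Ankrd1 and 105 bases before it in Nppb, AGATAA 47 and 84 bases before it, and TATAAA 31 bases before the start of Nppb; no matches overlapped. Of 32851 promoters of this length 12.6% held CATTCC, 9.99% AGATAA and 12.4% TATAAA. The Xirp2 window held none of the 3, which says nothing about the factors.

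The stress genes reached their highest levels in a handful of bright cells, and these were largely the same cells. For 10 genes followed after their values had been seen (Ankrd1, Xirp2, Nppb, Fhl1, Tnni1, Xirp1, Synpo2l, Hspb1, Hspb7 and Sqstm1), the highest cell was a bright one in both mice for each gene. In M25 well B1 was the highest for 9 of the 10. It had 7676 CPM of Ankrd1, 9709 of Xirp2, 2791 of Hspb1 and 2121 of Sqstm1, where the highest dim cell of that mouse had 2338, 657, 465 and 411 CPM. The exception, Xirp1, was highest in well E1, 1 of the 2 wells low in CM markers, at 3079 CPM, and well B1 came next at 478 CPM, under the 537 CPM of the highest dim cell.

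In M116, 8 of the 10 genes were highest in wells B2 and G4 of the same plate, with 4 genes each. Well B2 had 19397 CPM of Xirp2, 1711 of Fhl1 (a LIM protein of the sarcomere), 1257 of Hspb1 and 2424 of Sqstm1. Well G4 had 7670 CPM of Ankrd1 and 3230 of Tnni1, the slow skeletal troponin I of the fetal heart. The 3 wells were CMs by their markers, at 7.23% to 8.44% of counts, and all held the transgene, with 632 CPM of hBAG in B1, 157 in B2 and 324 in G4. Their hBAG levels lay within the range of the other bright cells. Well B1 also had the most genes with a count, 10717, and 0.193% of its counts in fibroblast markers. They were also among the highest bright cells of their mouse in ribosomal protein reads, second of 20 for B1 and first and the third of 56 for G4 and B2, and none had a count of Rpl3l. B2 had the lowest share of fatty acid oxidation reads among the bright cells of M116, 0.371%.

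**Figure D3:**
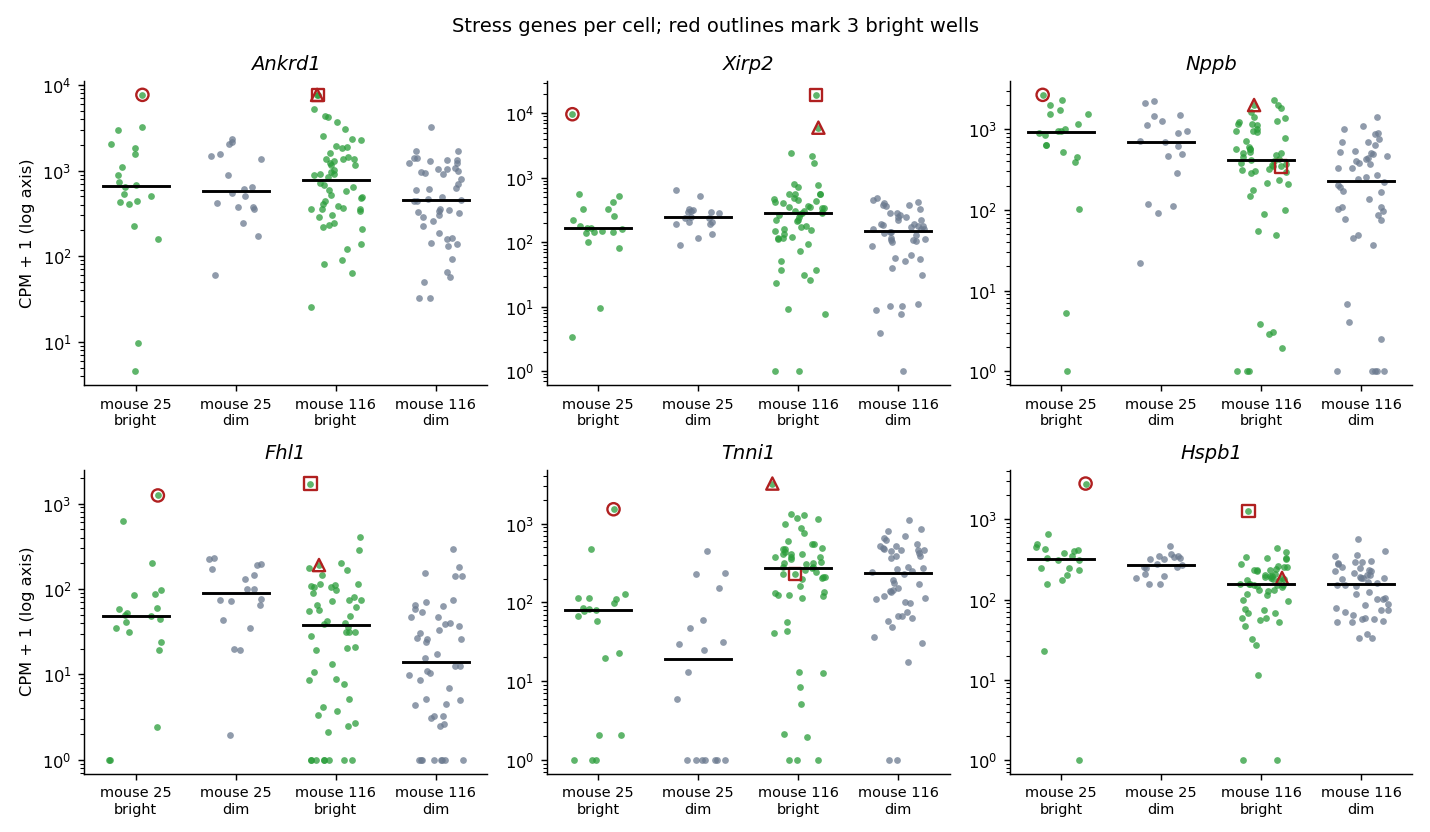
Levels of 6 stress genes in single cells of both homozygous mice, as CPM plus 1 on a log axis; points are cells and black lines medians. Red outlines mark well B1 of M25 (circle) and wells B2 (square) and G4 (triangle) of M116, which lie at the top of several panels, for example at 7594 to 7676 CPM of Ankrd1, while most bright and dim cells overlap.

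Fhl1, Tnni1, Xirp1 and Gadd45g had narrower gaps than Xirp2. Fhl1 was 143 in bright and 103 CPM in dim cells of M25 and 85.2 and 37.9 in M116. Without the highest cell of each sum its ratio was -0.19 in M25 and 0.88 in M116. Tnni1 was 157 and 77.6 in M25 and 369 and 283 in M116, and 50.1% of its counts in bright cells of M25 lay in well B1. The ratio of Tnni1 was -0.45 and 0.93 on the plates of M116, and its difference of 0.68 was 0.019 in the 86 cells low in reads of other cell types that are described further on. Xirp1 was 165 and 98.3 in M25 and 131 and 102 in M116, a difference of 0.55 ± 0.18, or 0.40 without the 2 wells low in CM markers. Gadd45g, a growth arrest gene, was spread over many cells, being detected in 76.8% to 88.9% of the cells of each set. It was 147 and 69.7 in M25 and 110 and 64.7 in M116, a difference of 0.91 ± 0.18, with 0.60 and 0.82 on the plates of M116. Control cells had more of it than either class, 254 and 222 CPM.

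The chaperones and autophagy partners of BAG3 went in both directions between bright and dim cells, with list medians near 0. Of 7 small heat shock protein genes 2 (28.6%) were higher in bright cells of both mice, Hspb1 and Hspb2, and none was lower in both, with a median of 0.05 (log2). HspB8, which BAG3 binds, is encoded by Hspb8, and its level was 177 in bright and 199 CPM in dim cells of M25 and 208 and 175 in M116. Cryab, for αB-crystallin, was 1222 and 1302 in M25 and 889 and 807 in M116. For both genes the direction differed between the mice. Hspb1, for HSP27, was 453 and 293 in M25 and 177 and 163 in M116, with 31.8% of the first value from 1 cell, a difference of 0.37 ± 0.17. Without the highest cells the ratio was 0.21 and 0.03.

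Of the 6 genes of the BAG family 4 (66.7%) were lower in bright cells of both mice and 0 higher, with a median of -0.22, or -0.16 and -0.011 on the plates of M116. Bag4, 1 of the 4, had 24 against 27 counts in M25, and without the highest cell of each sum its ratio in M116 was 1.38 in place of -0.59. Bag5 was 12.5 and 26.9 CPM in M25 and 21.4 and 29.3 in M116, and Bag2, an inhibitor of the ligase CHIP, was 55.1 and 67.8 in M25 and 72.4 and 88.1 in M116. The difference of Bag2 was -0.29 ± 0.19. Of 22 partners and clients of BAG3 in autophagy, 6 (27.3%) were higher and 6 lower in both mice, close to the share of all genes, with a median of -0.03. Synpo2l, a Z-disc relative of the BAG3 partner synaptopodin 2, had the lowest unadjusted p of this list. It was 203 and 116.3 in M25 and 238 and 169 in M116, a difference of 0.65 ± 0.15, with ratios of -0.01 and 1.19 on the plates of M116. Sqstm1, the autophagy receptor p62, was 413 and 206 in M25 and 229 and 204 in M116. Wells B1 and C8 held the highest levels in M25, and without the highest cell of each sum the ratio was 0.73 and 0.09. The value of 0.73 leaves out B1 but still includes C8, which was low in CM markers. On the plates of M116 the ratio of Sqstm1 was -0.32 and 0.49, and its difference in the 86 cells low in reads of other cell types was -0.10. Flnc, for filamin C, was 67.4 and 57.4 in M25 and 95.5 and 81.8 in M116, a difference of 0.23 ± 0.18. Map1lc3b, for the autophagosome protein LC3B, was lower in bright cells, at 271 and 293 in M25 and 206 and 284 in M116.

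Of 23 Hsp70 and Hsp90 chaperone genes 3 (13%) were higher and 5 lower in both mice, with a median of -0.00017. Hsp90aa1, the inducible Hsp90, had a similar gap in both mice: 206 and 150 CPM in M25 and 225 and 157 in M116, a difference of 0.49 ± 0.13, with 0.52 and 0.45 on the plates of M116. Of 38 proteasome subunit genes 16 (42.1%) were higher and 4 lower, with a median of 0.11, or 0.23 in M25 and 0.06 in M116. The proteasome median was -0.019 and 0.098 on the plates of M116 and -0.016 in the 86 cells low in reads of other cell types. Of 34 genes of autophagy and the lysosome 8 (23.5%) were higher and 15 (44.1%) lower, with a median of -0.08. No gene of these lists passed the edgeR threshold or was called by DESeq2.

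Among other stress pathways, 11 of 26 genes (42.3%) of the integrated stress response were higher and 3 lower in both mice, but the median was 0.65 in M25 and 0.02 in M116. On the plates of M116 the median of this list was -0.19 and 0.58, and over both mice it was 0.15, or -0.23 in the same 86 cells. Of 23 immediate-early genes 5 (21.7%) were higher and 1 lower, with a median of 0.56 in M25 and -0.23 in M116. Of 17 p53 target and growth arrest genes 4 (23.5%) were higher and 3 lower.

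Most genes of the cytosolic ribosomal proteins, which build the translation machinery, were slightly higher in bright cells. Of 84 genes tested 66 (78.6%) were higher in bright cells of both mice and 1 lower, with a median of 0.22 (log2), 0.22 in M25 and 0.21 in M116. On the plates of M116 the median was 0.19 and 0.26, and it was 0.20 without the 2 wells low in CM markers. Together they took 1.40% of the counts of bright and 1.19% of dim cells in M25, and 1.22% and 1.03% in M116. By cell, the median share was 1.33% in bright and 1.17% in dim cells of M25 and 1.18% and 0.99% in M116. In M25 14 of 20 bright cells and in M116 47 of 56 lay above the median of the dim cells. Control cells had medians of 1.18% and 1.00%, within the span of the 4 sets. The differences of single genes ran from -1.18 to 4.52 (log2), and 1 of the 84 had a sum of 0. Rpl7, for example, was 275 and 201 CPM in M25 and 217 and 171 in M116, a difference of 0.40 ± 0.13. No gene of the list passed the edgeR threshold or was called by DESeq2. Ribosomal protein genes have many processed pseudogenes, and the counting mode of STAR that the study used takes uniquely mapped reads, so that reads fitting several copies were not counted.

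The 1 ribosomal gene lower in both mice was Rpl3l, a paralogue of Rpl3 that is found in heart and skeletal muscle. Its level was 32.1 CPM in bright and 61.7 in dim cells of M25 and 25 and 65.7 in M116, a difference of -1.18 ± 0.25 (adjusted p = 0.67, edgeR). It had a count in 70% of bright and 88.9% of dim cells of M25 and in 64.3% and 87.5% in M116. On both plates of M116 it was lower in bright cells, at -1.07 and -1.82, and control cells had more than any class, 127 and 110 CPM.

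**Figure D4:**
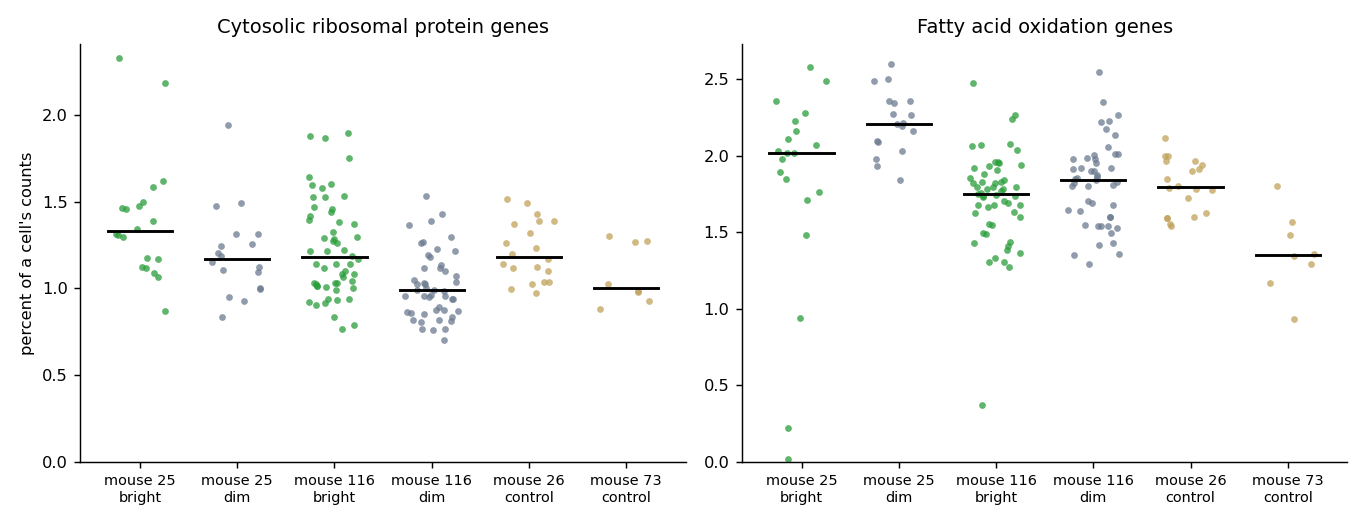
Share of each cell's counts in the 87 listed cytosolic ribosomal protein genes (left) and in 28 fatty acid oxidation genes (right); points are cells, black lines medians, and control cells stand at the right of each panel. Bright cells lie higher than dim cells of the same mouse on the left (medians 1.33% against 1.17% and 1.18% against 0.99%) and lower on the right (2.02% against 2.21% and 1.75% against 1.84%), with wide overlap.

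Most genes of fat oxidation and of the citric acid cycle were lower in bright cells of both mice. Of 28 fatty acid oxidation genes 20 (71.4%) were lower in both mice and 1 higher, with a median of -0.17, or -0.24 in M25 and -0.09 in M116. On the plates of M116 the median was -0.03 and -0.31, and without the 2 wells low in CM markers it was -0.12. By cell, the share of counts had a median of 2.02% in bright and 2.21% in dim cells of M25, where 15 of 20 bright cells lay below the dim median. In M116 the medians were 1.75% and 1.84%, with 40 of 56 bright cells below the dim median. Control cells had medians of 1.80% and 1.35%, of which the first lay within the span of the 4 sets and the second below it.

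Cd36, the fatty acid transporter, was 1100.4 and 1439 CPM in M25 and 807 and 1108 in M116, a difference of -0.42 ± 0.07 (adjusted p = 0.67 with edgeR and 0.018 with DESeq2). Cd36 is also made by capillary endothelium, the markers of which were lower in bright cells too; in the 86 cells with at most 0.01% of counts in markers of other cell types the difference was -0.37. Decr1, an enzyme for unsaturated fatty acids, was 550 and 722 in M25 and 443 and 579 in M116. It was lower in bright cells on each plate of M116. Etfdh, which passes electrons from fat oxidation to ubiquinone, was 544 and 662 in M25 and 512 and 682 in M116, a difference of -0.35 ± 0.09.

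Of 25 genes of the citric acid cycle list 16 (64%) were lower and 3 higher, with a median of -0.12. The median of this list was -0.072 without the 2 wells low in CM markers, and -0.012 and -0.17 on the plates of M116. Sucla2, for a subunit of succinyl-CoA synthetase, was 772 and 971 CPM in M25 and 808 and 985 in M116. Ppargc1a, the coactivator of mitochondrial genes, was 246 and 328 in M25 and 242 and 350 in M116, a difference of -0.47 ± 0.11, with control cells far higher at 864 and 859 CPM. Of 19 glycolysis genes 9 (47.4%) were lower and 1 higher, with a median of -0.09. The glycolysis median was -0.047 without the 2 wells low in CM markers and -0.011 in the 86 cells low in reads of other cell types. Eno3, muscle enolase, was 2008 and 2451 in M25 and 1827 and 2125 in M116. Of 11 tested genes of the mitochondrial genome 6 (54.5%) were lower and 0 higher in both mice, with a median of -0.04, or -0.0069 with equal weight of each cell. The median with library size in place of TMM, given further on, had the other sign. COX1 was lower by a small margin in both, 40645 and 45209 CPM in M25 and 44659 and 50511 in M116, a difference of -0.17 ± 0.02. Of 86 nuclear genes of the respiratory chain 21 (24.4%) were lower and 11 higher in both mice, with a median of -0.03 that turned to 0.017 without the 2 wells low in CM markers, and the sign of the median differed between M25, at -0.12, and M116, at 0.05.

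**Figure D5:**
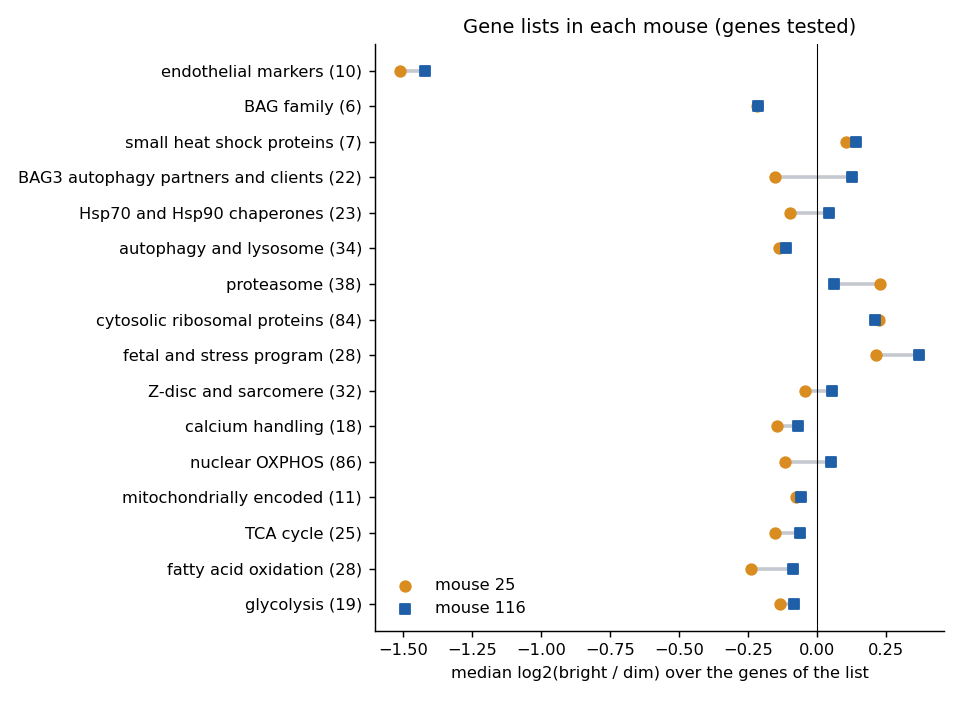
Median log2 ratio of bright to dim cells over the tested genes of 16 lists, for M25 (circles) and M116 (squares), with the number of genes in brackets. Ribosomal proteins (0.22 and 0.21) and the stress program (0.21 and 0.37) lie right of 0 in both mice, fatty acid oxidation (-0.24 and -0.09) and endothelial markers (-1.51 and -1.42) left of it.

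Contractile genes went in both directions. Of 32 Z-disc and sarcomere genes 10 (31.3%) were higher and 8 (25%) lower, with a median of 0.02. At an unadjusted p under 0.05, 4 were higher and 3 lower, and DESeq2 called 2, Xirp2 and Ankrd1, described above at 1.81 and 0.79. Titin (Ttn) was 16983 and 21141 CPM in M25 and 20222 and 21992 in M116, a difference of -0.22 ± 0.06. Fhl2, a LIM protein that binds titin, was 970 and 1106 in M25 and 733 and 1011 in M116. Of 18 calcium handling genes 1 was higher, Casq1, and 6 (33.3%) lower, with a median of -0.09. Atp2a2, the calcium pump of the sarcoplasmic reticulum, was 4651 and 5558 in M25 and 5571 and 6094 in M116, a difference of -0.19 ± 0.05, and Ryr2, the calcium release channel, was 1102 and 1272 in M25 and 1196 and 1352 in M116. Of the 11 CM markers 5 were lower in both mice and 0 higher, and the lowest of the differences was -0.22; their median was -0.034, or 0.015 without the 2 wells low in CM markers. Without these wells the differences of Ttn, Fhl2, Atp2a2 and Ryr2 were -0.17, -0.28, -0.15 and -0.14, and the ratio of Atp2a2 in M25 was -0.15 in place of -0.26.

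Among genes with a mean of at least 20 CPM, those with the largest gap in the same direction in both mice were named by the smaller of their 2 ratios. Higher in bright cells were, in this order, hBAG and BAG-eGFP aside, Casq1, Gpx3, Xirp2, Ganc, Sox6, Sdc2, Fbn2, Yeats2, Fem1b and Rab35. Casq1, the calsequestrin of fast skeletal muscle, was 35 CPM in bright and 7.45 in dim cells of M25 and 41.5 and 7.64 in M116, a difference of 2.36 ± 0.34. It had a count in 45% and 44.6% of bright and in 27.8% and 18.8% of dim cells, and 60.9% of its counts in bright cells of M25 lay in well B1. Without the highest cell of each sum the ratios were 1.54 and 2.59. Gpx3, a secreted glutathione peroxidase, was 164 and 38 in M25 and 77.5 and 23.9 in M116, a difference of 1.90 ± 0.22. Well C8, low in CM markers, held 57.5% of its counts in bright cells of M25, and without the 2 low wells the difference was 1.37. The difference of Gpx3 was 0.22 in the 86 cells low in reads of other cell types, and the ratios on the plates of M116 were 0.58 and 2.91.

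The same well carried much of the other gaps in M25. It held 70.7% of the counts of Sdc2, 76.6% of Fbn2, 87.4% of Yeats2 and 75.8% of Ganc in bright cells of that mouse, and without the 2 low wells the differences were 1.19 in place of 1.95 for Sdc2, 1.31 in place of 2.13 for Fbn2, 1.40 in place of 2.69 for Yeats2 and 0.84 in place of 1.64 for Ganc. Zmat3, a p53 target, had 1.68 in place of 2.65, and -0.53 in the 86 cells low in reads of other cell types. Sox6, a transcription factor of striated muscle, did not rest on it: its level was 26.5 and 12.3 CPM in M25 and 38.8 and 13.9 in M116, a difference of 1.33 ± 0.33, and 1.38 without the low wells. Rab35 was 28.9 and 14.6 in M25 and 33.9 and 14.5 in M116, and Fem1b was 27.5 and 13.6 in M25 and 36.6 and 16.9 in M116.

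The genes with the largest gaps in the other direction were Tagln2, Tpm4, Gpihbp1, Cd93, S100a16, Jam2, Cav1, Nbea, Usp40, Gm43605, Fabp4 and Rgs5. Several are genes of capillaries. Gpihbp1, which anchors lipoprotein lipase on endothelium, was 30.1 CPM in bright and 87.9 in dim cells of M25 and 15.3 and 61.8 in M116. Fabp4 was 104 and 302 in M25 and 75.6 and 160 in M116, a difference of -1.31 ± 0.18, with control cells at 169 and 173. Rgs5, a pericyte gene, was 26 and 51.9 in M25 and 18.9 and 45.6 in M116.

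Endothelial reads were more abundant in the dim cells of both mice, and immune reads came from a few dim wells. All 10 endothelial markers (Pecam1, Cdh5, Kdr and others) were lower in bright cells of both mice, with a median of -1.38, and they took 0.02% of the counts of bright and 0.0527% of dim cells in M25 and 0.0183% and 0.0395% in M116. Over single cells their share ran from 0 to 0.141% in bright and to 0.289% in dim cells of M25, and to 0.221% and 0.389% in M116. At over 0.01% of counts were 4 bright and 5 dim cells in M25 and 13 and 11 in M116, so that the number of such wells was alike and the sums were carried by a few. Of the 8 immune markers that passed the filter on low counts, 7 had no count in at least 1 of the 4 sums and passed through the dim cells, so their direction carries no weight. The immune counts summed to 6 in bright and 1726 in dim cells of M25, 99.7% of the latter from 1 cell, and to 81 and 2839 in M116, with 94.8% of the latter from 3 cells. Erythroid reads in dim cells of M25 came from 1 cell, with 99.9% of 6334 counts. Fibroblast reads were higher in bright cells of M25, 50727 counts against 1412, 88.3% of them in well C8, but not in M116, with 4207 against 9337.

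When cells with over 0.01% of their counts in endothelial, fibroblast, immune and erythroid markers together were left out, 86 cells remained, 12 bright and 12 dim in M25 and 34 and 28 in M116. Tagln2 then had a difference of 2.18, Fabp4 of 1.58 and Rgs5 of 0.92, each with the sign turned, where Fabp4 is itself 1 of the markers by which the cells were left out, and Gpihbp1, Cd93, Cav1 and Tpm4 no longer passed the filter on low counts. Jam2 at -1.98, S100a16 at -1.46, Nbea at -1.17, Usp40 at -1.62 and Gm43605 at -1.21 were still lower in bright cells. Jam2, a junctional adhesion molecule, was 22.3 and 93.6 CPM in M25 and 15.4 and 37 in M116 and had a count in 75% and 88.9% and in 35.7% and 52.1% of cells. S100a16, a calcium-binding protein, was 18.2 and 46 in M25 and 12.1 and 43.2 in M116. Gm43605, a predicted gene, was 9.76 and 20.9 in M25 and 24.6 and 57.4 in M116, against 0.306 and 2.44 in control cells.

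In the same 86 cells the median of the ribosomal proteins was 0.18, that of fatty acid oxidation -0.13 and that of the stress program 0.24. Postn, 1 of the fibroblast markers by which cells were left out, is also a member of the stress list. Wells B1, B2 and G4, which held the highest levels of stress genes, were not among the 86, since each had over 0.01% of counts in fibroblast markers. Ankrd1 then differed by 0.27, Xirp2 by 0.54 and Nppb by 0.55, whereas Fhl1, at -0.39, and Sqstm1, at -0.10, were lower in bright cells. The part of these reads in the differences was not tested.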

How the data were processed

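Single CMs were sequenced by the SMART-seq2 protocol, which reads full-length cDNA and has no molecular identifiers. The authors aligned the reads with STAR, having joined transcripts of eGFP and human BAG3 to the murine reference, and counted them with its GeneCounts mode, and the deposited table holds raw counts per gene and cell for 55538 features; the genome build, the annotation and the use of strand are not given in the sources used here.

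Cells with at least 1000 genes with a count were kept and their counts were summed by mouse and brightness, since cells of 1 animal are not replicates. No doublet caller was run. The 4 sums were tested with edgeR 4.0.16 (R 4.3.3; filterByExpr, TMM, glmQLFit with legacy = FALSE, glmQLFTest) with the mouse as a block and Benjamini-Hochberg adjustment at 0.05. Samples with the same number are the same animal, which is the source of the pairing. The log2 difference between M25 and M116 in bright cells was set against that in dim cells. Over 4436 genes the Pearson correlation of these was 0.11 and the Spearman correlation 0.26. The mouse as a block takes up level differences between the 2 animals. The p-values therefore measure the disagreement of the 2 within-mouse differences, with the dispersion moderated over genes. The SE of a difference was calculated back from the test, as the absolute difference over the square root of its F statistic. Levels of bright and dim sums are CPM over TMM-scaled library sizes; levels of control and heterozygous cells and of single cells are plain CPM. DESeq2 1.42.0, limma 3.58.1 and a Wilcoxon rank sum test over cells were alternatives, besides other normalizations, cell filters and left-out sums. The tests were checked on simulated data.

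Genes were named by a rule: the transgene features; up to 10 called genes in each direction; the 12 genes in each direction with the largest smaller within-mouse ratio, at a mean of at least 20 CPM and with a count in at least 25% of cells of the higher class; members of the BAG, small heat shock protein, BAG3 partner and stress lists; and up to 4 genes of other lists with the lowest unadjusted p. The cells and the gene lists were chosen with earlier results of these data known. Gadd45g, Zmat3 and the genes followed by well were described after their values were seen. Promoter sequences are from RefSeq (GRCm38.p6). Some genes of the lists are not reported here by name.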

Additional observations from a re-analysis of the deposited data

Results flagged for a closer look

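The heterozygous cells of mouse 72 entered no comparison and held transgene reads above the level of the control cells. Cells labelled bright there had 105 CPM of hBAG and cells labelled dim had 251 CPM, with medians of 3.90 and 219 CPM over 24 and 25 cells, so the libraries went against the brightness label in that mouse. The ratio of hBAG to Bag3 was 0.524 in the cells labelled bright and 1.22 in those labelled dim. There was 1 heterozygous mouse, and the difference was not tested.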

How the results depend on the processing

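With edgeR or limma no gene was called under any alternative fit to the sums. The fit with no replicate block, which drops the pairing by mouse, called 0 genes, and the median of autophagy and lysosome genes was then -0.10. DESeq2 called 76 genes, 81 without cells under 1% of CM markers and 11 without cells over 0.01% of other markers, a limit chosen after seeing the data, as was the 1% limit. The Wilcoxon test over cells, which treats cells as replicates, called 2 of 61 genes, the transgene features hBAG and BAG-eGFP. The 61 had passed limits on the share of cells with a count (10%) and on the ln fold change (0.25). The ratio to Bag3 in bright cells was 2.48 with both transgene features together. The causes of these changes were not tested.

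List medians moved as follows. With library size in place of TMM they were 0.26 for ribosomal proteins, 0.00028 for mitochondrially encoded genes, -0.055 for glycolysis, -0.037 for autophagy and lysosome, 0.086 for small heat shock proteins and -0.18 for the BAG family. With equal weight of each cell they were 0.27 for ribosomal proteins, -0.0069 for mitochondrially encoded genes, -0.13 for autophagy and -0.19 for the BAG family. With all cells, mitochondrially encoded genes had -0.012. Without cells over 0.5% of other markers the medians were 0.20 (ribosomal proteins), -0.13 (glycolysis), -0.23 (BAG family) and -0.47 (endothelial markers). Without cells under 1% of CM markers they were 0.20 (ribosomal proteins), -0.047 (glycolysis), -0.050 (autophagy), 0.10 (small heat shock proteins) and -0.17 (BAG family). Without cells over 0.01% of other markers they were 0.18 (ribosomal proteins), -0.011 (glycolysis), -0.016 (proteasome), -0.14 (autophagy), -0.0063 (small heat shock proteins), -0.15 (BAG family) and 0.57 (endothelial markers, over the 2 of 10 still tested in cells that had been left out by these same markers). Leaving out either mouse gave 0.21 to 0.22 for ribosomal proteins, -0.079 to -0.059 for mitochondrially encoded genes, -0.14 to -0.085 for glycolysis, -0.14 to -0.12 for autophagy, 0.10 to 0.14 for small heat shock proteins, -0.22 to -0.21 for the BAG family and -1.51 to -1.42 for endothelial markers.

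Of 1470 values of single genes under the alternatives, 28 had the opposite sign. Without cells over 0.01% of other markers these were Bag3 (-0.064), Fhl1 (-0.39), Hspb8 (-0.0063), Cryab (-0.031), Sqstm1 (-0.10), Tagln2 (2.18), Fabp4 (1.58), Rgs5 (0.92) and Zmat3 (-0.53). Hspb8 was -0.036 without cells over 0.5% of other markers, and the log2 fold change of Cryab was -8.3e-05 without the highest cell of each sum. Leaving out a mouse gave -0.21 to 0.29 for Bag3, -0.17 to 0.25 for Hspb8, -0.092 to 0.14 for Cryab, -0.15 to 4.95 for Nppa and -0.055 to 0.58 for Hspb7. Leaving out 1 of the 4 sums, without the block, reversed Bag3 (-0.037 and -0.25), Hspb8 (-0.079 and -0.030), Cryab (-0.24 and -0.29), Nppa (-0.12 and -0.55), Tnni1 (-0.096 and -0.22), Hspb1 (-0.36) and Flnc (-0.061).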
